A study of Homo sapiens with 6 samples.

Results

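Extracellular matrix components and the enzymes that modify them were examined in Rh30 cells expressing PANX1. The 6 genes are MMP2 and BMP1, which encode proteases, PLOD1 and DSEL, which encode matrix-modifying enzymes, AGRN, which encodes a matrix proteoglycan, and LGALS1, which encodes a matrix-binding lectin. They were taken by name from a deposited table of 1273 genes, in which each of the 6 names matches 1 entry, and they were chosen by their place in a list that had itself been selected on the PANX1 against GFP contrast. The differences between PANX1 and GFP cells given for them are therefore a description, and counts of genes called over the whole table are given without reading anything from them.

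RNA was sequenced from stable Rh30 cells carrying PANX1 under a cumate-inducible switch and from control cells, named GFP, that carry the vector without PANX1, in 3 libraries per group. The sample labels describe GFP as induced by cumate, whereas the study's methods describe it as made constantly from the vector in all of these cells, so GFP is the name of the control and may not be particular to it. Rh30 is an established cell line from an alveolar rhabdomyosarcoma (aRMS), a childhood tumor with features of developing skeletal muscle, and PANX1 encodes a membrane channel protein. Both groups were kept in the same selection drugs and received 30 µg/mL cumate for 48 h, so that the GFP cells share the inducer and the switch. The comparison rests on 1 tumor cell line and on stable PANX1 and GFP cells made separately, and no library from cells without cumate was analysed here, so that the effect of PANX1 and other differences between the stable cells cannot be told apart. Expression is given in FPKM, in which fragment numbers are divided by transcript length and by library depth. FPKM values keep no read counts, so the number of fragments behind each value cannot be read from the table and no counting interval is given. Read totals stated in the study's methods were not used here. The sources call the libraries biological replicates without saying which cultures they came from, and the SDs measure the spread between these libraries.

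The extracellular matrix is the network of collagens, glycoproteins and proteoglycans that surrounds cells. Its collagens are hydroxylated inside the cell, trimmed by proteases outside it and cleaved again when the matrix is remodeled, while the sugar chains of its proteoglycans are built and modified in the Golgi. In skeletal muscle, a basement membrane encloses each fiber and carries the signals that gather acetylcholine receptors at the nerve contact.

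PANX1 itself was examined first, as a check of the labels. Its entry (chromosome 11, 93862094 to 93915137, hg19) was at 37.8, 35.3 and 28.1 FPKM with GFP and at 124, 184 and 123 FPKM with PANX1, given as throughout in the order of replicates 1, 2 and 3. All 3 PANX1 libraries lay above all 3 GFP libraries, as labelled, and reads of the construct and of the cell's own gene cannot be told apart in this entry. Of the skeletal muscle and rhabdomyosarcoma markers, 4 of 17 were in the table, namely DES, TNNT1, CDH15 and MYH8. MYH8, a developmental myosin heavy chain, was lower in every PANX1 library, with 0.388, 0.606 and 0.883 FPKM in GFP and 0.115, 0.260 and 0.0301 in PANX1 cells, while the other 3 were higher without overlap, as 82% of all genes were. After scaling, DES and TNNT1 turned lower, and after GC correction DES and CDH15 did. The summed FPKM of the 4, carried by DES and TNNT1, was 363, 441 and 536 in GFP and 628, 665 and 1138 in PANX1 replicates 1, 2 and 3. DES, the muscle intermediate filament desmin, was the most abundant of them in GFP cells, at 214, 277 and 354 FPKM. Of the fibroblast markers 1 of 10 was present, THY1, with 20.6, 18.4 and 22.2 FPKM in GFP and 30.6, 33.7 and 52.9 in PANX1 libraries. Of the endothelial and leukocyte markers 1 of 7 was present, CD68, at 0.599, 0.416 and 1.08 FPKM in GFP and 1.37, 2.11 and 2.40 in PANX1 libraries. In each of the 3 lists the summed level was higher in every PANX1 than in every GFP library and highest in PANX1 replicate 3, as most genes of the table were, and THY1 turned lower after scaling. The part of these markers in the matrix values was not tested. The markers outside the table, MYOD1, MYOG, DCN and LUM among them, were not analysed here.

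PANX1 replicate 3 stood apart from the other PANX1 libraries across the table. Relative to the GFP mean, genes of the table had median log2 ratios of 0.77, 0.61 and 1.87 in the 3 PANX1 libraries. In 1082 of the 1273 genes, replicate 3 was the highest PANX1 library. PANX1 itself was highest in replicate 2, at 184 FPKM, and its FPKM in replicate 3 was close to that in replicate 1. Each ratio of the 6 matrix genes is therefore given with and without replicate 3.

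Mean levels of the 5 matrix genes other than DSEL were higher in cells expressing PANX1, and that of DSEL was lower. MMP2 stood out, with a mean that was 8.97 times that of GFP cells, while the other 4 higher genes differed by 1.87 to 2.89 times. The groups did not overlap for any of the 6 genes, with 5 higher and 1 lower. Among all genes of the deposited set, 82% were higher and 11.9% were lower without overlap, and nothing is read from the count for the 6 genes. In these bulk samples, less RNA per cell and fewer cells that express a gene cannot be told apart. The log2 ratio of MMP2, 3.16, was 2.11 after scaling the libraries to a common median ratio and 1.78 with 1 FPKM added to both means, since the GFP mean is below 1 FPKM. After the same scaling, LGALS1 moved from 1.53 to 0.25 and DSEL from -1.26 to -2.11, and after correction for GC content LGALS1 was at 0.66 and DSEL at -0.63. After scaling, BMP1 and PLOD1 had a lower instead of a higher mean in PANX1 cells, and after GC correction AGRN did. Both corrections were fitted on genes of the table alone, which were selected on this contrast and of which 1108 had a higher mean. Scaling takes out the typical difference of such a table by construction. A gene that turns lower after it is therefore lower relative to the table, which does not show a lower level in the cells. MMP2, LGALS1 and DSEL kept their directions under every alternative examined.

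**Figure D1:**
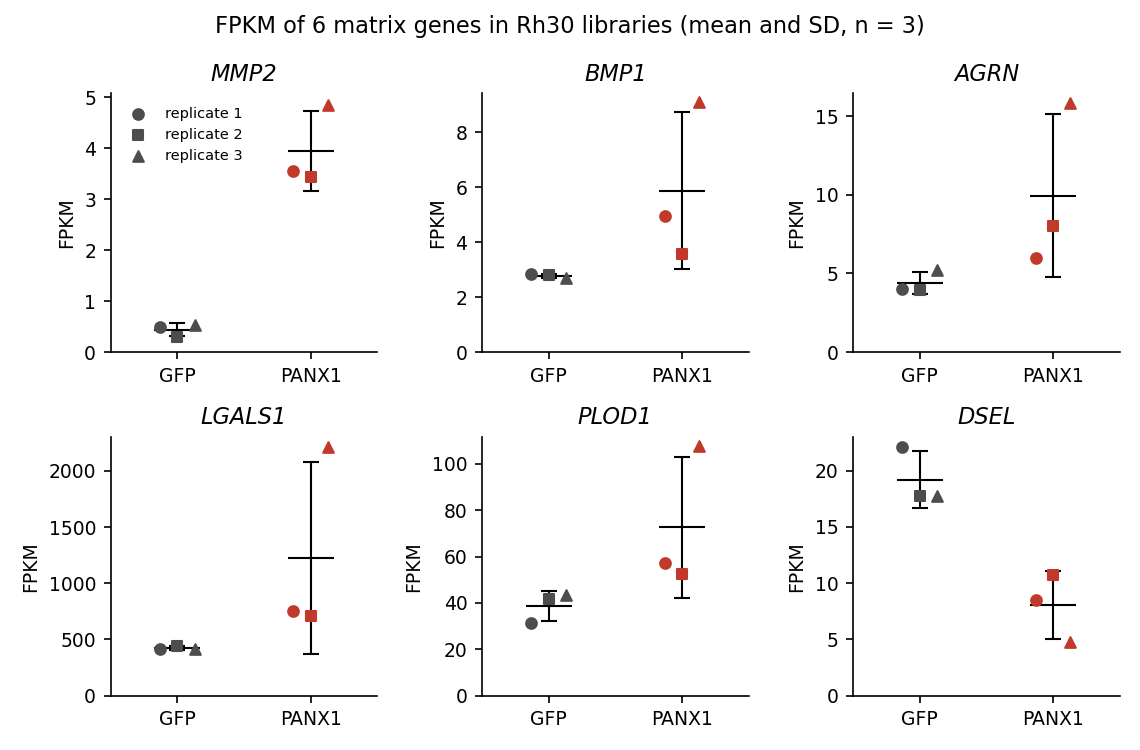
FPKM (linear axes from 0, a scale for each gene) of the 6 matrix genes in the 3 GFP and 3 PANX1 libraries, with a symbol per library, a line at the group mean and error bars of 1 SD. The PANX1 points lie above the GFP points in MMP2, BMP1, AGRN, PLOD1 and LGALS1 and below them in DSEL, and replicate 3 is the highest PANX1 point in those 5 genes and the lowest in DSEL.

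MMP2 encodes gelatinase A, a secreted zinc protease that digests denatured collagen and basement membrane collagen. Its entry spans chromosome 16 from 55513081 to 55540586 (hg19) and lies within the annotated gene, which runs from 55423612 to 55540603 on the forward strand, and an uncharacterized gene model (ENSG00000279030) lies inside it on the same strand. MMP2 was near the bottom of the table in GFP libraries, at 0.489, 0.299 and 0.532 FPKM, and reached 3.55, 3.44 and 4.84 FPKM in PANX1 libraries. The lowest PANX1 value was several times the highest GFP value, and the PANX1 libraries were close to each other. The means were 0.440 ± 0.124 and 3.95 ± 0.780 FPKM (SD, n = 3 each), a log2 ratio of 3.16. Without replicate 3 the log2 ratio was 2.99. By size of the log2 ratio MMP2 was number 8 of the 1268 genes with a ratio, and it was number 1 without replicate 3. Among the 6 genes it had the lowest mean in both groups, and a mean FPKM of at least 1 was reached only in PANX1 cells.

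BMP1 encodes the procollagen C-proteinase, which removes the carboxyl propeptides of fibrillar procollagens and also activates lysyl oxidase. Its entry spans chromosome 8 from 22022653 to 22069840 (hg19, forward strand), and the annotation places lncRNAs within it, 1 of them on the reverse strand. GFP libraries held 2.84, 2.80 and 2.69 FPKM of BMP1 and PANX1 libraries held 4.96, 3.59 and 9.10. The GFP libraries were nearly alike, whereas PANX1 replicate 3 was far above replicate 2. The means were 2.78 ± 0.0743 and 5.88 ± 2.87 FPKM (SD, n = 3 each), a log2 ratio of 1.08, and the log2 ratio without replicate 3 was 0.62.

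PLOD1 encodes lysyl hydroxylase 1, which hydroxylates lysines of collagen chains in the endoplasmic reticulum and so prepares them for crosslinking. Its entry spans chromosome 1 from 11994724 to 12035599 (hg19, forward strand) and overlaps no other annotated gene. PLOD1 was at 31.4, 41.5 and 43.5 FPKM in GFP libraries, against 57.5, 52.5 and 107.8 with PANX1. PANX1 replicates 1 and 2 lay just above the highest GFP library and replicate 3 lay far above. The means were 38.8 ± 6.52 and 72.6 ± 30.6 FPKM (SD, n = 3 each). The log2 ratio was 0.90, and 0.50 without replicate 3, the smallest of the 5 higher genes in each case.

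AGRN encodes agrin, a heparan sulfate proteoglycan of basement membranes that clusters acetylcholine receptors at the neuromuscular junction. Its entry spans chromosome 1 from 955503 to 991499 (hg19, forward strand) and contains a short lncRNA on the same strand. GFP cells had 3.99, 3.95 and 5.21 FPKM of AGRN, whereas PANX1 cells had 5.99, 8.02 and 15.8. PANX1 replicate 1 was close to GFP replicate 3 and the PANX1 libraries spread widely. The means were 4.38 ± 0.714 and 9.94 ± 5.19 FPKM (SD, n = 3 each), with a log2 ratio of 1.18, or 0.68 without replicate 3.

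DSEL encodes a dermatan sulfate epimerase, which converts glucuronic to iduronic acid in chondroitin chains and so makes dermatan sulfate. DSEL was at 22.1, 17.7 and 17.7 FPKM in GFP libraries, against 8.54, 10.8 and 4.80 with PANX1. Every PANX1 library was below every GFP library, and replicate 3 was again the farthest from GFP. The means were 19.2 ± 2.54 and 8.03 ± 3.01 FPKM (SD, n = 3 each), a log2 ratio of -1.26, and of -0.99 without replicate 3. DSEL was number 23 from the bottom of the 1268 ratios. Its entry spans chromosome 18 from 65173819 to 65566856 (hg19), far beyond the gene, which the annotation places on the reverse strand from 65173824 to 65183957. The rest is covered mainly by DSEL-AS1 on the forward strand from 65183783 to 65566856, which overlaps DSEL by 175 bases, and another lncRNA runs antisense inside DSEL. No strand-specific counting is stated, so reads of DSEL and of these antisense transcripts cannot be told apart in this entry.

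The promoter sequences of PLOD1 and DSEL, 1 higher and 1 lower gene of the group, are shown for their base composition. The libraries' dependence on GC content was measured on transcripts, and these sequences lie before the gene start and do not measure it. RefSeq entries matched for 2 of the 6 genes. Each sequence is the 250 bases before the gene start on GRCh38.p14, 5′ to 3′ on the strand of the gene, and capitals mark the GC box letters GGGCGG or, for the other strand, CCGCCC. The PLOD1 sequence lies at chr1:11934467-11934716 on the forward strand and the DSEL sequence at chr18:67516721-67516970 on the reverse strand.
PLOD1: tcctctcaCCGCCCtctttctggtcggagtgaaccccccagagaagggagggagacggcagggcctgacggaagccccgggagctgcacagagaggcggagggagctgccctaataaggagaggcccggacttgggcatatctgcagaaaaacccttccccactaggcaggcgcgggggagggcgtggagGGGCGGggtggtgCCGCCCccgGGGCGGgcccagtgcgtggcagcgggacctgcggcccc
DSEL: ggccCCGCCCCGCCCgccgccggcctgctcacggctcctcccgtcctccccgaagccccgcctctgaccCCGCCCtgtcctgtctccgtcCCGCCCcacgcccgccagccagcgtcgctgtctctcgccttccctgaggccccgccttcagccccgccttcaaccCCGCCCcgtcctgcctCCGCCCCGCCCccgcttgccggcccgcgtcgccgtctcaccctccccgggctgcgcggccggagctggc
The PLOD1 sequence was 70.4% G or C, with 17 CpG and 4 GC box matches. The DSEL sequence was richer still, at 80.0% G or C, with 33 CpG and 7 GC box matches, some of which share a base or run together. The letters TATAA were in neither window on either strand. Of all 27305 promoters of the same length, 42.3% held a GC box match, 7.82% held 4 or more, 1.18% held 7 or more and 19.6% held TATAA, and the median GC content was 58.0%. Of the 912 promoters of genes in the table, 72.1% held a GC box match, 20.2% held 4 or more and 3.95% held 7 or more, and the median GC content was 66.8%. The high GC content of the DSEL promoter contrasts with its transcript, which at 39.9% was the poorest in GC of the 6.

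LGALS1 encodes galectin-1, a small lectin that binds galactose-bearing sugars on laminin, fibronectin and integrins. Its entry spans chromosome 22 from 38071613 to 38075809 (hg19, forward strand) and overlaps no other annotated gene. GFP libraries held 412, 440 and 420 FPKM of LGALS1 and PANX1 libraries held 750, 711 and 2209. The GFP libraries were nearly alike, PANX1 replicates 1 and 2 were also close to each other, and replicate 3 was far above either. The means were 424 ± 14.4 and 1223 ± 854 FPKM (SD, n = 3 each). The log2 ratio was 1.53 with all libraries, 0.79 without replicate 3 and 0.84 between the group medians.

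**Figure D2:**
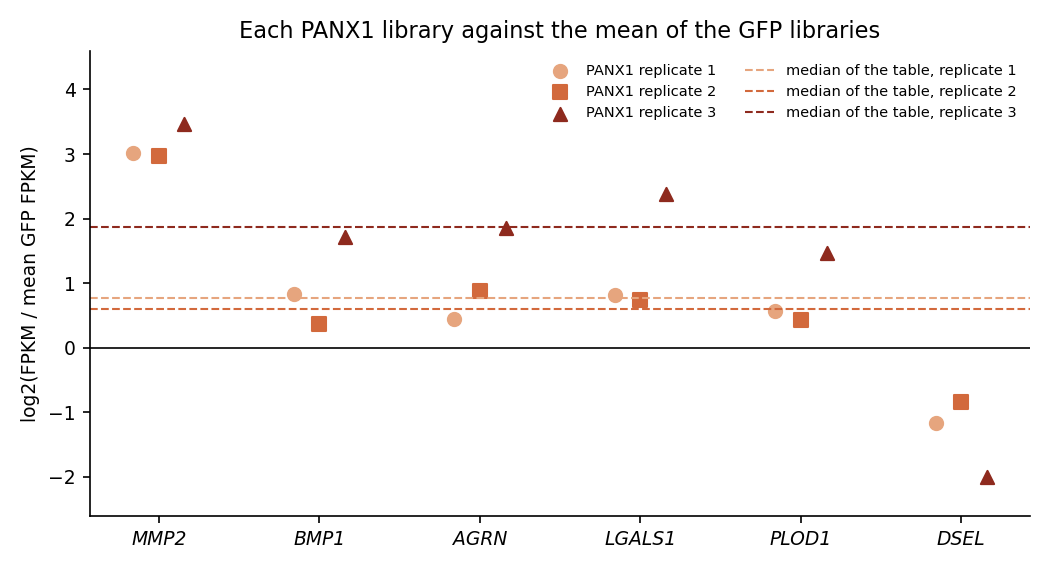
Log2 ratio of each PANX1 library to the mean GFP FPKM for the 6 matrix genes, with the median of the table in each library for comparison. MMP2 is at 3.01, 2.97 and 3.46, DSEL is negative in all 3, and the other 4 genes lie around the table's medians of 0.77, 0.61 and 1.87.

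The library-by-library ratios separated MMP2 and DSEL from the other members. MMP2 had log2 ratios to the mean GFP FPKM of 3.01, 2.97 and 3.46 in PANX1 replicates 1, 2 and 3, each far above the table's median in that library. LGALS1 had 0.82, 0.75 and 2.38, which were above the medians of 0.77, 0.61 and 1.87 in the same libraries. BMP1 had 0.84, 0.37 and 1.71, AGRN had 0.45, 0.87 and 1.85 and PLOD1 had 0.57, 0.44 and 1.47. PLOD1 lay under the median in each library, and BMP1 and AGRN each exceeded it in 1 library, so the differences of these 3 genes were of the size common to the table. DSEL had -1.17, -0.83 and -2.00. In the ranking of the 1268 log2 ratios, 99.4% of genes lay below MMP2, 73.0% below LGALS1, 45.7% below AGRN, 34.9% below BMP1, 21.1% below PLOD1 and 1.74% below DSEL.

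**Figure D3:**
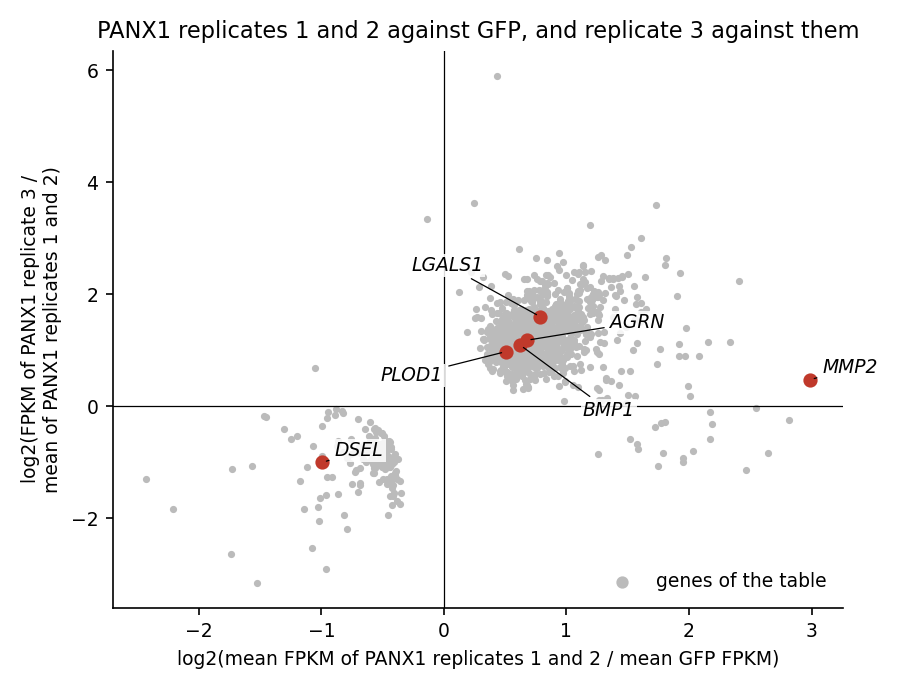
For each gene of the table, the log2 ratio of the mean of PANX1 replicates 1 and 2 to the mean GFP FPKM (x axis) against the log2 ratio of PANX1 replicate 3 to the mean of replicates 1 and 2 (y axis), with the 6 matrix genes in red. MMP2 is far to the right at 2.99 and low on the y axis at 0.47, LGALS1, AGRN, BMP1 and PLOD1 lie within the main cloud, and DSEL is negative on both axes.

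PANX1 replicate 3 over the mean of replicates 1 and 2 gave a log2 ratio of 1.60 for LGALS1, 1.18 for AGRN, 1.09 for BMP1, 0.97 for PLOD1, 0.47 for MMP2 and -1.01 for DSEL. The median over the table was 1.17. For MMP2, 55 of the 1273 genes had a ratio smaller in size, and for LGALS1 977 had. Over the 1154 genes with an annotated transcript, this ratio had a Spearman's rho of 0.66 with the GC content of the transcript, as a description across genes that share the same libraries. The transcripts of the 6 genes were 67.9% G or C for AGRN, 60.8% for BMP1, 58.8% for PLOD1, 58.3% for LGALS1, 55.8% for MMP2 and 39.9% for DSEL. The median was 61.0% over the table and 49.1% over annotated protein-coding genes. The part of GC content in the differences of the 6 genes was not tested, and their values after a correction for it stand with the processing alternatives.

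**Figure D4:**
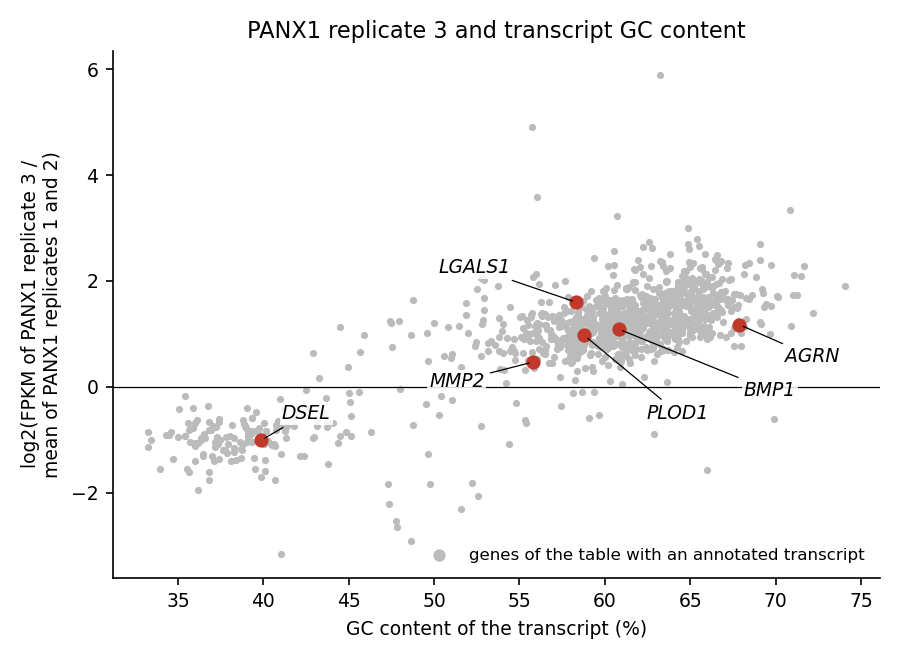
Log2 ratio of PANX1 replicate 3 to the mean of replicates 1 and 2 against transcript GC content (%) for the 1154 genes with an annotated transcript, with the 6 matrix genes in red. Transcripts poor in GC lie mostly below 0, as DSEL does, and those rich in GC mostly above 0, as the other 5 genes do.

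With limma on log2(FPKM + 1), where changes of low genes are understated, and Benjamini-Hochberg adjustment over the table, 33.5% of the 1273 genes were called higher and 0.707% lower with PANX1 at an adjusted p under 0.05. Among the 6 matrix genes 2 were called higher, MMP2 and LGALS1, and 1 lower, DSEL. None of the 6 was called after scaling (1 higher and 1 lower at an unadjusted p under 0.05) or with eBayes without trend (4 and 1), MMP2 alone was called after GC correction, and a block by the replicate numbers of the titles added PLOD1. Over the table, scaling called 0 and 0 (145 and 171 unadjusted) and eBayes without trend 0 and 0 (770 and 54). GC correction called 9 and 0 there, and the block 581 and 33. The table had been selected on the same libraries, so nothing is read from these counts. The fitted log2 differences were 1.77 for MMP2 (SE 0.351), 1.32 for LGALS1 (SE 0.401), 0.93 for AGRN (SE 0.525), 0.83 for PLOD1 (SE 0.385), 0.79 for BMP1 (SE 0.495) and -1.21 for DSEL (SE 0.483). Without PANX1 replicate 3 all 5 higher genes and DSEL were called, beside 994 higher and 146 lower over the table. Without GFP replicate 2 none of the 6 was called by limma, although 2 higher genes had an unadjusted p under 0.05. Over the table that fit called 14 higher and 0 lower (329 and 9 unadjusted).

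The 6 genes were also ordered by level in each group. In GFP cells, LGALS1 was the highest in FPKM, followed by PLOD1, DSEL, AGRN, BMP1 and MMP2, and no neighbours in this order overlapped between libraries. By mean FPKM in PANX1 cells the order was LGALS1, PLOD1, AGRN, DSEL, BMP1 and MMP2. AGRN came before DSEL only through replicate 3, since DSEL was above AGRN in PANX1 replicates 1 and 2, as in GFP cells. There the ranges of AGRN and DSEL, of DSEL and BMP1 and of BMP1 and MMP2 overlapped, so these neighbours are not separated by their ranges, whereas AGRN and MMP2 did not overlap. MMP2 was below BMP1 within each PANX1 library. LGALS1 ranked number 20 of the 1273 genes by mean FPKM in GFP and number 11 in PANX1 cells, whereas DSEL moved from number 304 to number 797 and MMP2 from number 1178 to number 1008.

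Ratios of genes within a library cancel a scaling common to all genes of that library, but not its dependence on GC content. The paired genes differed in transcript GC content, as MMP2 (55.8%) and BMP1 (60.8%) or PLOD1 (58.8%) and PLOD3 (61.4%) did. The part of GC content in these ratios was not tested. MMP2 relative to TIMP1, an inhibitor of matrix metalloproteinases, was 0.00706, 0.00358 and 0.00598 in GFP and 0.0261, 0.0235 and 0.0163 in PANX1 replicates 1, 2 and 3. MMP2 relative to BMP1 was 0.172, 0.107 and 0.197 in GFP and 0.715, 0.960 and 0.532 in PANX1 libraries. In both ratios every PANX1 library was above every GFP library, and BMP1 and TIMP1 were themselves higher. PLOD1 relative to PLOD3, another lysyl hydroxylase, moved little and was lower in PANX1 libraries, at 4.67, 4.83 and 4.61 in GFP and 4.18, 4.21 and 4.05 in PANX1 cells. AGRN relative to HSPG2, which encodes the basement membrane proteoglycan perlecan, was 0.373, 0.415 and 0.377 in GFP and 0.335, 0.355 and 0.373 in PANX1 cells, with PANX1 replicate 3 almost touching GFP replicate 1. LGALS1 relative to LGALS3BP, a galectin-binding glycoprotein, was 11.1, 11.4 and 9.92 in GFP and 12.9, 11.1 and 17.6 in PANX1 cells, and these groups overlapped.

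The 6 genes were set beside 5 lists of related matrix genes and 1 short list of lysosomal enzymes. Together the lists held 43 genes of the table, of which 40 were higher and 3 lower by mean FPKM. Of these 43, 38 were higher and 3 lower without overlap, 16 were called higher and 1 lower by limma, and the median log2 ratio was 1.26. The shares over the table were 82% and 11.9% without overlap and 33.5% and 0.707% called, and nothing is read from counts near them. Leaving out the 6 genes gave 37 genes with a median of 1.29, 14 of them called higher and 0 lower by limma (24 and 0 at an unadjusted p under 0.05). Of the 1273 genes of the table, 744 were higher and 43 lower at that unadjusted threshold, and nothing is read from these counts. Over the whole table the median was 1.23, so the lists lay close to the table. After scaling to a common median ratio, 26 of the 43 were higher and 17 lower, against 694 and 574 in the table, and after GC correction 31 of 40 were higher and 9 lower, against 848 and 300 in the table.

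**Figure D5:**
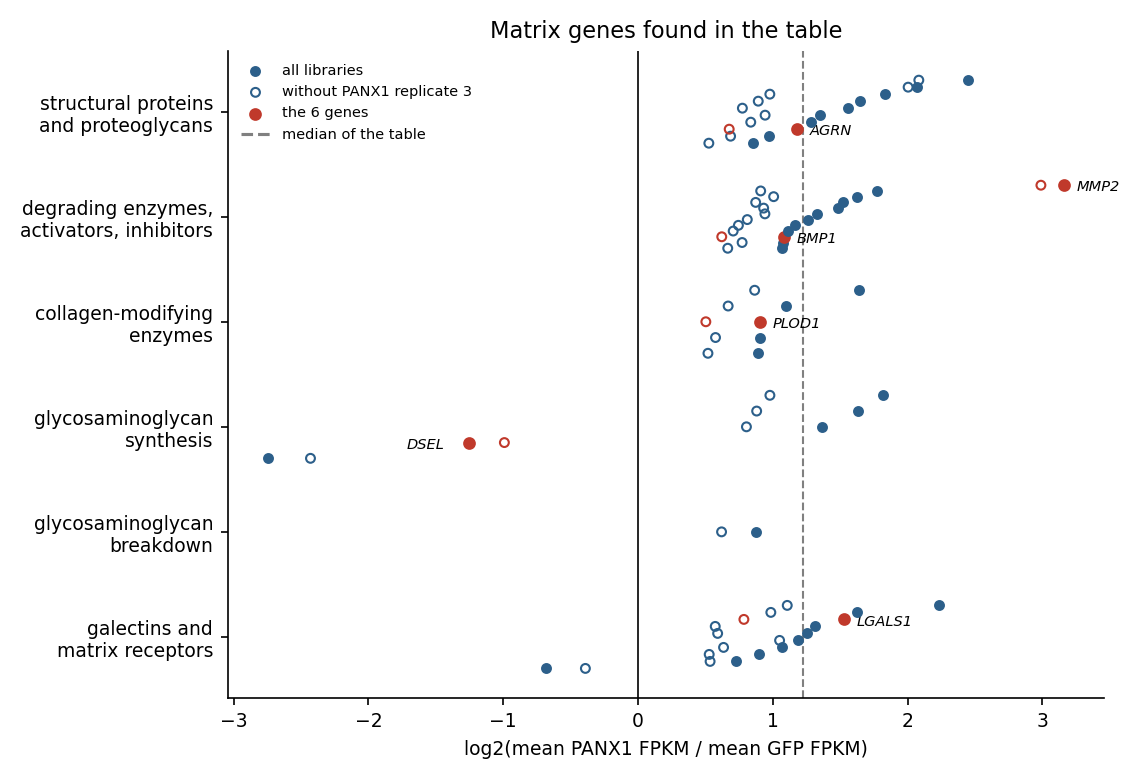
Log2 ratio of mean FPKM in PANX1 to GFP cells for the matrix genes found in the table, by list, with all libraries (filled) and without PANX1 replicate 3 (open). The 6 genes are in red, and most lists lie around the dashed table median of 1.23, with MMP2 far to the right and DSEL and NDST4 to the left.

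Of the structural proteins and proteoglycans, 10 were in the table and all 10 had a higher mean, 8 of them without overlap and 3 called by limma, beside 82% and 33.5% of all genes, and 2 turned lower after scaling and 3 after GC correction. Their median log2 ratio was 1.45. The largest log2 ratios were 2.45 for IGFBP6, a binding protein for insulin-like growth factors, 2.07 for COL2A1 and 1.83 for COL6A2, which encode collagen chains, and without PANX1 replicate 3 they were 2.08, 2.00 and 0.98. IGFBP6 had 0.203, 0.179 and 0.219 FPKM in GFP and 1.08, 0.621 and 1.59 in PANX1 libraries, and COL2A1 had no more than 0.279 FPKM in any library. The smallest were 0.85 for ELN (elastin), whose groups overlapped, 0.97 for COL4A2 (a basement membrane collagen) and 1.18 for AGRN, of which ELN and COL4A2 turned lower after either correction and AGRN after GC correction.

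The list of matrix-degrading enzymes, their activators and inhibitors held 12 entries of the table, of which HYAL2 and HYAL3, the latter in a joint entry with NAT6, are hyaluronidases, which cleave a glycosaminoglycan, and not proteases. All 12 had a higher mean without overlap, and 6 were called higher by limma, beside 82% and 33.5% of all genes, while 4 of the 12 turned lower after scaling and 0 of the 11 with a GC content after GC correction. Their median log2 ratio was 1.29. MMP2 led with 3.16, followed by 1.78 for CTSD (a lysosomal aspartic protease) and 1.62 for HYAL2. Without PANX1 replicate 3, CTSD was at 0.91 and HYAL2 at 1.01, so that the place of CTSD after MMP2 rests on that library. The smallest were 1.07 for MMP24, a membrane metalloproteinase, and 1.08 each for FURIN, a proprotein convertase, and BMP1, and all 3 turned lower after scaling. The other metalloproteinase entries therefore lay below MMP2, with MMP15, named here after its value was seen, at 1.48.

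The 5 collagen-modifying genes were all higher without overlap, and 0 were called by limma, beside 82% without overlap and 33.5% called higher over the table. At an unadjusted p under 0.05, 3 were higher and 0 lower, beside 744 and 43 of the 1273 genes of the table. Their log2 ratios were 1.64 for LEPREL2, 1.10 for PLOD3, 0.90 each for PLOD1 and LEPREL4, and 0.89 for PPIB, a prolyl isomerase of the endoplasmic reticulum, and LEPREL2 was at 0.87 without PANX1 replicate 3. Their median was 0.90, below that of the table, and after scaling 1 of the 5 was higher and 4 were lower, whereas after GC correction all 3 with a GC content were higher. PPIB was the most abundant of them, at 165, 168 and 179 FPKM in GFP and 246, 243 and 461 in PANX1 libraries.

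DSEL was set against 4 other enzymes of glycosaminoglycan synthesis in the table. CHPF, which extends chondroitin chains, had a log2 ratio of 1.82, and B3GAT3 and B4GALT7, which build the linker that joins the chains to the protein, had 1.64 and 1.37. Without PANX1 replicate 3 these 3 were at 0.98, 0.88 and 0.80. After scaling they were at 0.53, 0.39 and 0.16, and after GC correction at 0.17, 0.35 and 0.27. NDST4, a heparan sulfate sulfotransferase, was lower as DSEL was, with a log2 ratio of -2.75. DSEL and NDST4 were at -2.11 and -3.55 after scaling and at -0.63 and -2.33 after GC correction. NDST4 had 0.148, 0.260 and 0.280 FPKM in GFP and 0.0473, 0.0379 and 0.0173 in PANX1 libraries, levels far below those of DSEL. Of the list of lysosomal glycosaminoglycan-degrading enzymes, which does not hold the hyaluronidases, NAGLU alone was in the table, with a log2 ratio of 0.87 that turned negative after either correction.

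Of the 10 galectins and matrix receptors, 9 had a higher and 1 a lower mean, all without overlap, and 5 were called higher by limma, beside 82% higher and 11.9% lower without overlap and 33.5% called higher over the table. Their median log2 ratio was 1.22, and after scaling 6 were higher and 4 lower, as against 7 and 3 after GC correction. The largest log2 ratios were 2.23 for ITGB4, an integrin subunit at no more than 0.733 FPKM, 1.62 for CD151, a tetraspanin that binds integrins, and 1.53 for LGALS1. Without PANX1 replicate 3 they were 1.11, 0.99 and 0.79, and ITGA3, an integrin subunit named here after its value was seen, was above the last 2 at 1.05. The smallest were -0.68 for ITGAV, the integrin alpha V subunit, 0.72 for ITGA7, a laminin-binding integrin subunit of muscle, and 0.89 for CSPG4, a membrane proteoglycan, with ITGA7 and CSPG4 turning lower after either correction. ITGAV had 34.1, 27.2 and 29.0 FPKM in GFP and 19.4, 26.5 and 10.3 in PANX1 libraries, so that PANX1 replicate 2 was close to GFP replicate 2. Like DSEL, ITGAV had a transcript poor in GC, at 38.3%, and GC correction turned its log2 ratio to 0.041, whereas that of DSEL stayed negative at -0.63. The GC content used for DSEL is that of its coding transcript alone, whereas its entry also spans antisense transcripts, so its corrected value may not apply to the whole entry.

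The genes whose log2(FPKM + 1) followed each member most closely over the 6 libraries were found by Pearson's r, as a description among 1132 genes that share the same libraries. For MMP2 they included EBP and TAGLN2, with r of 0.98 and 0.97. Only 11 genes reached an r above 0.95 with MMP2, against 475 with AGRN, 685 with BMP1, 748 with PLOD1 and 830 with LGALS1. The closest to BMP1 were AGAP3, ATG16L2 and CIC, the closest to AGRN were FIBCD1, CDC42EP2 and SPATA20, and the closest to PLOD1 were FBXL14, ARID5A and HOMER3, all with r above 0.99. LGALS1 was followed by LAGE3, TSTA3 and C16orf13, also with r above 0.99. For DSEL, 57 genes had r above 0.95, with DDX3Y, TMEM48 and USP9Y the closest. Among the 6 genes, the 5 higher ones had r between 0.83 and 0.98 with each other, and DSEL had r between -0.97 and -0.92 with them. The lowest r among the 5 higher genes, 0.83, was between MMP2 and PLOD1, and the highest, 0.98, was between BMP1 and LGALS1.

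Entries of the table that lie within 250 kb of each member were also listed. AGRN had 6 such neighbours, ISG15 and NOC2L among them, and LGALS1 had 6, CDC42EP1 and GCAT among them. BMP1 had 2, FAM160B2 and NUDT18, PLOD1 had 2, AGTRAP and MIIP, and MMP2 had 1, IRX6. The mean FPKM of each of these was higher with PANX1, as it was for 1108 of the 1273 genes of the table, and nothing is read from it. DSEL had 0 neighbours in the table, and genes near it were not analysed here.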

How the data were processed

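Poly(A) RNA libraries of Rh30 cells, 3 with GFP and 3 with PANX1, had been made with a TruSeq RNA kit, for which strand marking is not stated. Per the submitters' processing notes and the study's methods, reads were mapped to hg19 by TopHat2 2.0.13 with Bowtie2 2.2.3, and Cufflinks 2.2.1 quantified the genes. The authors deposited FPKM, already scaled for depth and transcript length, for the 1273 genes that passed their own test. Of these, 32 entries name more than 1 gene. Groups came from the sample titles.

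Log2 ratios divide group means with no pseudocount, and 5 genes whose GFP values are all listed at 0 have none. Table-wide calls came from limma 3.58.1 in R 4.3.3 (lmFit, eBayes with trend) on log2(FPKM + 1), with Benjamini-Hochberg adjustment over all genes and a threshold of 0.05. Transcript GC content came from GENCODE v44lift37 on the same build and matched 1154 genes (90.7%). It was that of each gene's longest protein-coding transcript, or of its longest transcript where no coding one was annotated. The GC correction removed each library's slope on GC content, fitted over genes of the table. It was centered on 49.1%, the median of annotated protein-coding genes, and not on the table's median of 61.0%. It therefore also moved the level differences of genes away from 49.1%, and signs after it depend on this center.

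The members and the gene lists were chosen with earlier results of these data known. Named were PANX1, the 6 genes, the 3 genes most correlated with each, and every list gene in the table, or the 3 largest and 3 smallest log2 ratios where a list had more than 6, and 1 gene that this rule names is not reported here. TIMP1, HSPG2, LGALS3BP, MMP15, ITGA3, the chromosome neighbours and the cell type markers are named besides. Alternatives were pseudocounts of 0.1 and 0.01, a mean FPKM of at least 1, eBayes without trend, replicate blocks, median-of-ratios scaling, GC correction, group medians and leaving out each library. For the gene lists, eBayes without trend, the block by description numbers and both GC corrections were added after seeing the data. Python 3.11.15 with pandas 2.3.3 and matplotlib 3.10.9 made the summaries and figures.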

Additional observations from a re-analysis of the deposited data

How the results depend on the processing

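Median-of-ratios scaling gave log2 ratios of 2.11 for MMP2, 0.25 for LGALS1, 0.012 for AGRN and -2.11 for DSEL, and turned BMP1 to -0.10 and PLOD1 to -0.23. It moved the median log2 ratio of the table from 1.23 to 0.041 and that of the matrix lists from 1.26 to 0.11, so directions near those medians depend on it. GC correction gave 2.63 for MMP2, 0.66 for LGALS1, 0.086 for BMP1, 0.097 for PLOD1 and -0.63 for DSEL, and turned AGRN to -0.32. A pseudocount of 1 on the group means gave 1.78 for MMP2, and group medians gave 0.84 for LGALS1. Both corrections were fitted on genes of the table alone, which were selected on this contrast, and the GC correction also depends on its center of 49.1%. By construction, scaling and GC correction also remove true differences that are shared by most genes or follow GC content, and the cause was not tested.

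Leaving out 1 library gave log2 ratios of 2.95 to 3.32 for MMP2, 0.62 to 1.34 for BMP1, 0.68 to 1.44 for AGRN, 0.50 to 1.09 for PLOD1, 0.79 to 1.80 for LGALS1 and -1.52 to -0.99 for DSEL. The median was 0.77 to 1.51 in the matrix lists and 0.70 to 1.44 in the table. The limma calls then ranged from 8 to 994 higher and 0 to 146 lower in the table, from 0 to 5 and 0 to 1 among the 6 genes, and from 0 to 38 and 0 to 3 in the lists. The lowest counts came without GFP replicate 1 (8 higher in the table) or GFP replicate 2 (0 of the 6 genes and of the lists, with 2 and 9 higher and 0 lower at an unadjusted p under 0.05), and the highest without PANX1 replicate 3. DSEL was called only with all libraries or without PANX1 replicate 2 or 3, among the settings that leave out a library.

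The limma calls in the table, 426 higher and 9 lower, became 22 and 20 lower with pseudocounts of 0.1 and 0.01, 4 lower at a mean FPKM of at least 1, and 0 higher and 0 lower with eBayes without trend (770 and 54 at an unadjusted p under 0.05) or with scaling (145 and 171). GC correction gave 9 higher and 0 lower (294 and 66 unadjusted). All 6 genes passed the minimum mean FPKM, MMP2 only through its PANX1 libraries. Among the 6 genes, 2 higher and 1 lower became 0 and 0 without trend (4 and 1 unadjusted) and with scaling (1 and 1), and 1 and 0 with GC correction (2 and 1), where MMP2 was the gene called. In the matrix lists, 16 higher and 1 lower became 2 lower with either pseudocount, 0 and 0 without trend (32 and 1) and with scaling (5 and 3), and 1 and 0 with GC correction (10 and 2).

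The titles give both groups the replicate numbers 1, 2 and 3, but the deviations from the group means correlated at 0.42, -0.36 and 0.14 across genes between libraries of equal number. The study's methods speak of matching replicates without saying what matches them, so a pairing by number was not established. A replicate block by title numbers called 581 higher and 33 lower genes in the table and added PLOD1 to the 6 genes' calls, 3 higher and 1 lower. A block by description numbers, where 2 and 3 are shared, called 1005 and 140 in the table, 5 and 1 of the 6 genes, and 39 and 2 in the lists. In that fit GFP replicate 1 and PANX1 replicate 3 share a number with no library of the other group. Its differences therefore rest on the other libraries. Leaving out PANX1 replicate 3 with no block called 994 and 146 in the table, so the part of the block in these counts cannot be told apart. The title block with GC correction called 66 higher and 6 lower genes in the table. It called 1 higher (MMP2) and 0 lower of the 6 genes (2 and 1 unadjusted), and 4 and 0 in the lists (12 and 3 unadjusted).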
